A study of Mus musculus with 5 samples.

Results

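The unfolded protein response is described here through 10 genes of the 52550 in the gene count table, namely Atf4, Ddit3, Xbp1, Hspa5, Hsp90b1, Calr, Pdia4, Pdia6, Dnajb9 and Herpud1. They were taken by symbol, and each matched 1 row. The libraries came from KL (Lin-cKit+Sca1-) cells, the sorted bone marrow fraction that holds committed myeloid progenitors, of male mice. The BcorΔE9-10 group (n = 3 libraries, called BcorΔE9-10 1, 2 and 3) carried scl-Cre-ERT and a floxed Bcor allele (Bcorfl/y), and the BcorWT group (n = 2, BcorWT 1 and 2) carried scl-Cre-ERT with Bcorwt/y. Per the labels both groups hold the Cre, although the text of the study also allows controls that carry the floxed allele and no Cre. Both groups received intraperitoneal tamoxifen at 1 mg per day for 5 days, at 3 to 6 months of age, with cells taken 20 weeks later. The Cre is driven by a stem cell enhancer of Scl (Tal1), so recombination takes place in stem cells and reaches KL cells by descent. The deletion takes out exons 9 and 10 of Bcor, and the protein that can still be made from the allele ends before its contact with PRC1, a chromatin complex that represses genes. RNA was read by QuantSeq, a 3′ method that counts transcript ends, so levels are given as CPM (counts per 1e+06 counts) scaled between libraries by the TMM method and are not divided by transcript length.

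Proteins that enter the endoplasmic reticulum (ER) are folded there by chaperones, and unfolded protein in the ER is sensed by IRE1 (gene Ern1), PERK (Eif2ak3) and ATF6. IRE1 splices the Xbp1 mRNA so that it encodes an active transcription factor, PERK phosphorylates eIF2α and thereby favours translation of Atf4, and ATF6 is cut in the Golgi to release a transcription factor. These factors raise ER chaperones, genes of ER-associated degradation (ERAD), and amino acid genes, and ATF4 also serves kinases that sense amino acid shortage, haem shortage or viral RNA. Granulocyte progenitors make large amounts of granule proteins that fold in the ER, and Xbp1 has a known role in eosinophil and plasma cell development. Counts of transcript ends give neither the splicing of Xbp1 nor the translation of Atf4, so activity of these pathways was not measured.

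Promoter sequences are shown first because 4 of the 10 members share a known DNA element of this pathway. The element was defined on promoters of such genes, so its presence here follows from the choice of members and is a description. The windows run from 250 bases before to 50 bases after each RefSeq transcript start (GRCm38.p6), and all 10 members had one. The ER stress response element (ERSE), bound by ATF6 together with NF-Y, was searched on both strands as CCAAT and CCACG with 9 bases between them. It was found in the windows of Hspa5, Hsp90b1, Calr and Pdia6, with 2 matches in Hsp90b1, while 39 of all 32851 promoter windows (0.119%) held one. The second form (ERSE-II), searched as ATTGG and CCACG with 1 base between them, was found in Herpud1 and in 0.0365% of all windows. Each match is given below on the strand where it reads as the element, with the fixed letters and the bases between them all in capitals, and no match overlapped another.
Hspa5 ERSE: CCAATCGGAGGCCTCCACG
Hsp90b1 ERSE, distal: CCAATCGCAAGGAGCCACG
Hsp90b1 ERSE, proximal: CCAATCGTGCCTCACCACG
Calr ERSE: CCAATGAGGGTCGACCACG
Pdia6 ERSE: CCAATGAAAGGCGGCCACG
Herpud1 ERSE-II: ATTGGGCCACG

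The matches of Calr and the proximal match of Hsp90b1 lie on the strand opposite to the gene. Hspa5 also held the UPR element core TGACGTG, present in 2.01% of all windows, and Herpud1 held TGATGCAA, a match to the ATF4-CEBP composite element (TGATG, any base, then AA), present in 3.97%. Dnajb9, Xbp1, Atf4, Ddit3 and Pdia4 held none of the 4 motifs, which says only that these letters do not occur in their windows. A window that reached 200 bases before the start, in place of 250, gave the same numbers of members. The whole windows of the lone member that was lower and the lone member that was higher between the genotypes by the test given below are printed 5′ to 3′ on the strand of the gene, with motif matches in capitals. The Hspa5 window lies at chr2:34771840-34772139 on the plus strand and the Dnajb9 window at chr12:44210019-44210318 on the minus strand.
Hspa5 promoter: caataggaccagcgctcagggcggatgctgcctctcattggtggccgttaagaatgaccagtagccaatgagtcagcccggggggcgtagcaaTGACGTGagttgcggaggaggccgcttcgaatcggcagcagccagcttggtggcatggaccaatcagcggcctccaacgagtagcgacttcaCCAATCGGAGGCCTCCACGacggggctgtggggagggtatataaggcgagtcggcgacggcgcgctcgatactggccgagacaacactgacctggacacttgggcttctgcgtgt
Dnajb9 promoter: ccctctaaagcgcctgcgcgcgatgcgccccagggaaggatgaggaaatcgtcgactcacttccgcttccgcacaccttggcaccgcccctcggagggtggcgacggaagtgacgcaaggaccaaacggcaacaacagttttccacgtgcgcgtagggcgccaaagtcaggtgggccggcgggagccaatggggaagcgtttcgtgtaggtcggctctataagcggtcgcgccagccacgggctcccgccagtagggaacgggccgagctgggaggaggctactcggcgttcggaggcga

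**Figure D1:**
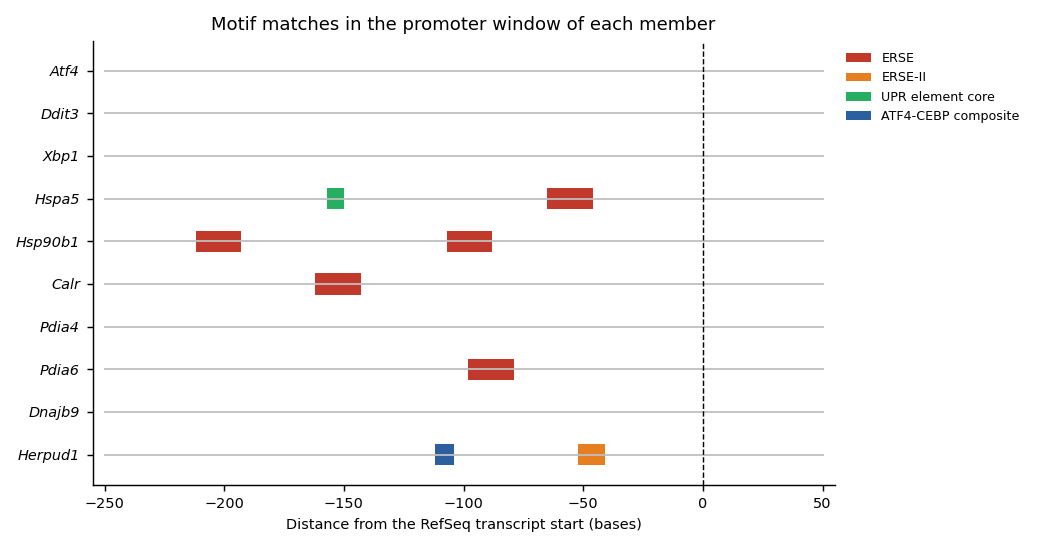
Motif matches in the promoter window of each of the 10 members, drawn against the distance in bases from the RefSeq transcript start (dashed line at 0); boxes are colored by motif and each grey line is 1 window. ERSE matches lie in 4 members, ERSE-II and the ATF4-CEBP composite in Herpud1, and 5 members have no box.

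The libraries held 5998924 to 8303999 counts and 11766 genes passed the filter on low counts, all 10 members among them. Of all genes tested 10.1% passed between the genotypes (limma, adjusted p under 0.05), 6.02% higher and 4.09% lower in BcorΔE9-10. The counts of markers below stand beside this share. The sorted population was checked against its markers, and Kit (452, 307 and 423 counts in BcorΔE9-10 1, 2 and 3 and 128 and 132 in BcorWT 1 and 2), Mpo and Elane were detected in every library, while Ly6a, which encodes Sca1, had 3 to 8 counts. Kit was higher in the BcorΔE9-10 libraries (log2 fold change 1.43, SE 0.173, limma adjusted p = 9.8e-05). Of the 10 progenitor markers 2 passed, Kit and Myb (0.41, limma adjusted p = 0.0201), while 6 had negative fold changes, Fcgr3 and Cebpa among them (both -0.34, neither passing, limma adjusted p = 0.102 and 0.166), and the list median was -0.06. Without BcorΔE9-10 1 or BcorΔE9-10 3 the number passing was 1. It was 3 with total counts alone, no filter, the replicate block or the GC trend removed. Counts at the end of Bcor do not read the deleted exons, so its 196, 168 and 185 counts in BcorΔE9-10 and 83 and 109 in BcorWT do not check the labels. The 2 BcorWT libraries differed more from each other (chi-square per gene 11.6, where sampling noise alone gives 1) than any pair of BcorΔE9-10 libraries (6.01 to 7.01). This mean grows with the counts of a gene, so the most abundant genes weigh most in it. Several members also lay apart between the BcorWT libraries, as given below. Markers of other cells also differed between the genotypes. Of 12 neutrophil granule and maturation markers 8 were lower in BcorΔE9-10 and none was higher by limma. Camp, an abundant one, lay at 0.25 on the log2 scale and did not pass (limma adjusted p = 0.114), and 1 marker was called higher with total counts alone, no filter, the replicate block, the GC trend removed (also with the block) or without BcorWT 2. Their summed level was 151200 to 175100 CPM against 219100 to 231100 CPM. Of 14 basophil, mast cell and eosinophil markers 10 were tested, 7 were lower and 1 (Gata2) was higher, with summed levels of 653 to 917 CPM against 1423 to 1735 CPM and Tpsb2 at 0 in every library. Of 16 erythroid and megakaryocyte markers 12 were tested and 1 (Car1) was higher, with 114 to 304 CPM against 72.1 to 96.3 CPM. Their median log2 fold change was 1.37 and 7 of the 12 had an unadjusted p under 0.05, and the number called ran from 0 (quality weights, GC trend removed, or without BcorΔE9-10 2, BcorΔE9-10 3 or BcorWT 1) to 7 (replicate block, or no filter on low counts), with 5 by edgeR and 6 without BcorΔE9-10 1. Of 16 B lymphoid and plasma cell markers, the cells in which this pathway is best known, 10 were tested and 1 (Igha, 21, 3 and 36 counts against 0 and 0) was higher, with summed levels that overlapped (50.7 to 80.0 CPM against 44.5 to 71.2 CPM) and Ms4a1 at 0 in every library. No marker of this list passed without BcorΔE9-10 1, BcorΔE9-10 3, BcorWT 1 or BcorWT 2 (limma, 5, 1, 1 and 2 at an unadjusted p under 0.05) or with at least 10 counts in every library (limma, 0 at that level). None of 8 tested macrophage and dendritic cell markers passed (limma, 1 at an unadjusted p under 0.05, none by edgeR or DESeq2, each with 2 at that level), and 1 was higher with the replicate block (also with the GC trend removed) and 1 lower without BcorWT 1 or without BcorWT 2. Of 9 markers outside the gate 3 were tested and Ly6g was lower, while Itgam lay above BcorWT in each BcorΔE9-10 library (119 to 132 CPM against 96.2 and 96.3 CPM, log2 fold change 0.37, limma adjusted p = 0.0618) and did not pass. The part of these shifts in the values below was not tested, and in bulk libraries fewer cells of a type and less RNA per cell cannot be told apart.

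Between the genotypes, 2 of the 10 members passed the test across all genes, 1 in each direction. Hspa5, which encodes the main ER chaperone BiP, was lower in BcorΔE9-10, and Dnajb9, which encodes the BiP partner ERdj4, was higher. Over all genes tested 10.1% passed (limma, adjusted p under 0.05), 6.02% with higher and 4.09% with lower levels in BcorΔE9-10, so 2 of 10 members stands beside a background of about 1 in 10. The median log2 fold change of the members was -0.07 against 0.004 for all genes tested, and 4 members had an unadjusted p under 0.05, as did 25.3% of all genes tested. The ranges of the groups did not overlap for 5 members, 2 above (Dnajb9 and Herpud1) and 3 below (Hspa5, Pdia6 and Ddit3), where 22.5% of all genes tested lay above and 20.3% below. The summed level of the 10 members was 2422, 2242 and 2272 CPM in BcorΔE9-10 and 2542 and 2837 CPM in BcorWT, lower in each BcorΔE9-10 library. Hspa5 is the largest part of this sum, and without it the other 9 members came to 1554, 1466 and 1444 CPM against 1332 and 1767 CPM, which overlap.

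**Figure D2:**
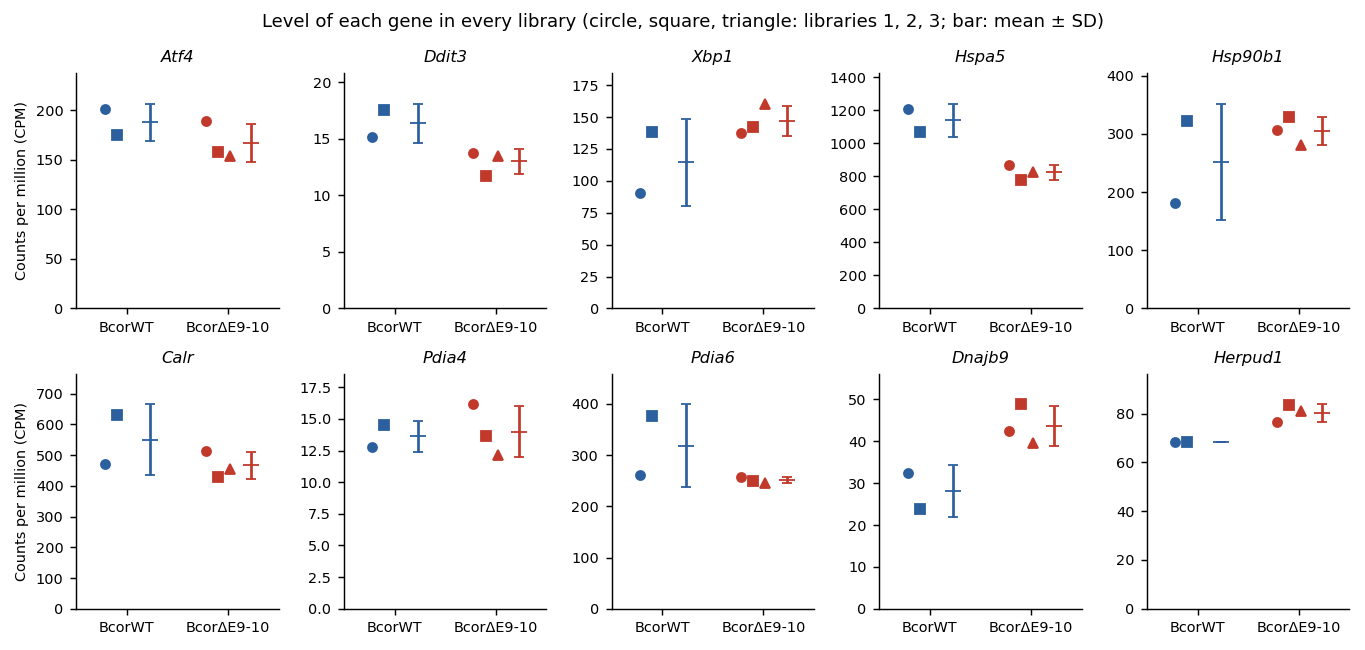
Level of each member in every library in CPM, on axes that start at 0, with BcorWT in blue and BcorΔE9-10 in red and the mean ± SD of each group beside its points. The groups separate for Hspa5, Pdia6 and Ddit3 (BcorΔE9-10 below) and for Dnajb9 and Herpud1 (BcorΔE9-10 above), and the BcorWT libraries lie far apart for Hsp90b1, Xbp1, Pdia6, Dnajb9 and Calr.

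Among the transcription factors, Atf4 (chromosome 15, 80255184 to 80257540, mm10), the effector of the PERK branch and of the wider integrated stress response, had 1603, 968 and 1322 counts in BcorΔE9-10 1, 2 and 3 and 1417 and 1180 in BcorWT 1 and 2. These were levels of 167 ± 19.2 CPM (SD, n = 3) and 188 ± 18.6 CPM (SD, n = 2), with ranges that overlapped and a log2 fold change of -0.17 (limma SE 0.124, adjusted p = 0.416). In 5 fits that each left out 1 library the log2 fold change of Atf4 ran from -0.27 to -0.07 and none passed. Ddit3, which encodes the pro-apoptotic factor CHOP downstream of ATF4, was read by few counts, 117, 72 and 116 in BcorΔE9-10 and 107 and 119 in BcorWT. All 3 BcorΔE9-10 levels (11.7 to 13.8 CPM) lay below both BcorWT levels (15.2 and 17.6 CPM), but the difference of -0.32 on the log2 scale (limma SE 0.211, adjusted p = 0.369) did not pass. Ddit3 lies on chromosome 10 and overlaps Mars on the other strand, and reads of overlapping genes may be shared because the strand setting of the counting is not given in the sources used here.

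Xbp1 (chromosome 11, 5520659 to 5525893), the mRNA that IRE1 splices, had 1167, 875 and 1374 counts in BcorΔE9-10 and 638 and 935 in BcorWT. The levels of BcorΔE9-10 were close together (147 ± 11.9 CPM, SD, n = 3), whereas BcorWT 2 stood 1.53 times above BcorWT 1 and overlapped the BcorΔE9-10 range. The log2 fold change of 0.39 (SE 0.153) had a limma adjusted p of 0.119. It was 0.70 without BcorWT 2, which passed (limma adjusted p = 0.00406), and 0.08 without BcorWT 1 (limma adjusted p = 0.827), so the call turned on which control library was used. Xbp1 also passed when libraries were scaled by total counts alone (0.54, limma adjusted p = 0.0378), a setting that moved the median of all genes by 0.14 on the log2 scale.

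Hspa5 (chromosome 2, 34771970 to 34777547) was the member with the highest count in every library. It had 7353, 4766 and 7105 counts in BcorΔE9-10 and 8539 and 7236 in BcorWT, which are 824 ± 45.8 CPM (SD, n = 3) and 1140 ± 98.9 CPM (SD, n = 2). Every BcorΔE9-10 library lay below both BcorWT libraries, and the log2 fold change was -0.47 (limma SE 0.0939, adjusted p = 0.00476). Hspa5 passed under all 11 alternatives of test, scaling, filter, weighting, depth, pairing and GC content, with log2 fold changes of -0.48 to -0.32. Without BcorWT 1 the difference was -0.38 with a limma adjusted p of 0.0572, and it passed in each of the other 4 fits that left out 1 library (-0.55 to -0.43). BcorWT 1 also held the highest summed level of 16 genes that respond to cell handling and heat (5029 CPM, against 3204 CPM in BcorWT 2 and 3357 to 3465 CPM in BcorΔE9-10), and the part of this in the Hspa5 level was not tested.

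Neither of the other ER chaperones among the members passed the test. Hsp90b1, which encodes GRP94, the ER form of HSP90, had 2598, 2023 and 2408 counts in BcorΔE9-10 and 1282 and 2180 in BcorWT. The 2 control libraries differed by a factor of 1.77, the widest gap of any member, and the BcorΔE9-10 range of 281 to 329.5 CPM held the level of BcorWT 2. Its log2 fold change was 0.33 (limma SE 0.169, adjusted p = 0.233), 0.75 without BcorWT 2 (limma adjusted p = 0.000856) and -0.09 without BcorWT 1 (limma adjusted p = 0.777). With the library number as a replicate block the value was 0.39 and passed (limma adjusted p = 0.0301). In that fit BcorΔE9-10 3 has no BcorWT library of its number and does not enter the genotype difference. Little is then left to measure the spread between libraries. Calr, which encodes calreticulin, the lectin chaperone of glycoproteins, had 4358, 2637 and 3910 counts in BcorΔE9-10 and 3311 and 4270 in BcorWT, with overlapping levels of 467 ± 43.3 CPM (SD, n = 3) and 550.5 ± 115 CPM (SD, n = 2). Its difference of -0.22 (limma SE 0.123, adjusted p = 0.276) was -0.005 without BcorWT 2 and -0.44 without BcorWT 1, where it passed (limma adjusted p = 0.0439).

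Pdia4 and Pdia6 encode protein disulfide isomerases, which form and rearrange disulfide bonds in the ER. Pdia6 had 2188, 1531 and 2107 counts in BcorΔE9-10 and 1840 and 2539 in BcorWT, and the 3 BcorΔE9-10 levels were nearly equal (251 ± 6.36 CPM, SD, n = 3). They lay just below BcorWT 1 (261 CPM) and far below BcorWT 2 (376 CPM). The log2 fold change of Pdia6 was -0.32 (limma SE 0.132, adjusted p = 0.143), and it passed only without BcorWT 1 (-0.59, limma adjusted p = 0.00788). Pdia4 had 137, 84 and 104 counts in BcorΔE9-10 and 90 and 98 in BcorWT, with levels of 14.0 ± 2.03 CPM (SD, n = 3) and 13.6 ± 1.23 CPM (SD, n = 2). Its ranges overlapped and the log2 fold change of 0.03 (limma SE 0.225, adjusted p = 0.948) changed sign in 4 alternatives. The end of the Pdia4 transcript is poor in G and C (29.7% over the last 300 bases), and removing a GC trend from each library gave -0.22 (limma adjusted p = 0.603).

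Dnajb9 (chromosome 12, 44205559 to 44210326, minus strand) had 360, 300 and 339 counts in BcorΔE9-10 and 229 and 161 in BcorWT. The levels were 43.6 ± 4.77 CPM (SD, n = 3) and 28.1 ± 6.11 CPM (SD, n = 2), and every BcorΔE9-10 library was above both BcorWT libraries. The log2 fold change was 0.63 (limma SE 0.178, adjusted p = 0.0334). This call was close to its threshold, since leaving out BcorΔE9-10 1, BcorΔE9-10 2, BcorΔE9-10 3 or BcorWT 2 gave 0.65, 0.55, 0.69 and 0.41 with limma adjusted p of 0.0626, 0.0999, 0.0573 and 0.210. Only without BcorWT 1 did it pass among these fits (0.85, limma adjusted p = 0.0310). Removing the GC trend gave 0.50 (limma adjusted p = 0.0948), where the last 300 bases of Dnajb9 hold 34.0% G and C. Herpud1, which encodes an ER membrane protein of the degradation complex, had 648, 512 and 696 counts in BcorΔE9-10 and 482 and 463 in BcorWT. The 2 BcorWT levels were nearly identical (68.4 ± 0.124 CPM, SD, n = 2) and all 3 BcorΔE9-10 levels were higher (80.3 ± 3.55 CPM, SD, n = 3), yet the log2 fold change of 0.23 (limma SE 0.128, adjusted p = 0.281) did not pass in any of the 5 fits that left out 1 library.

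**Figure D3:**
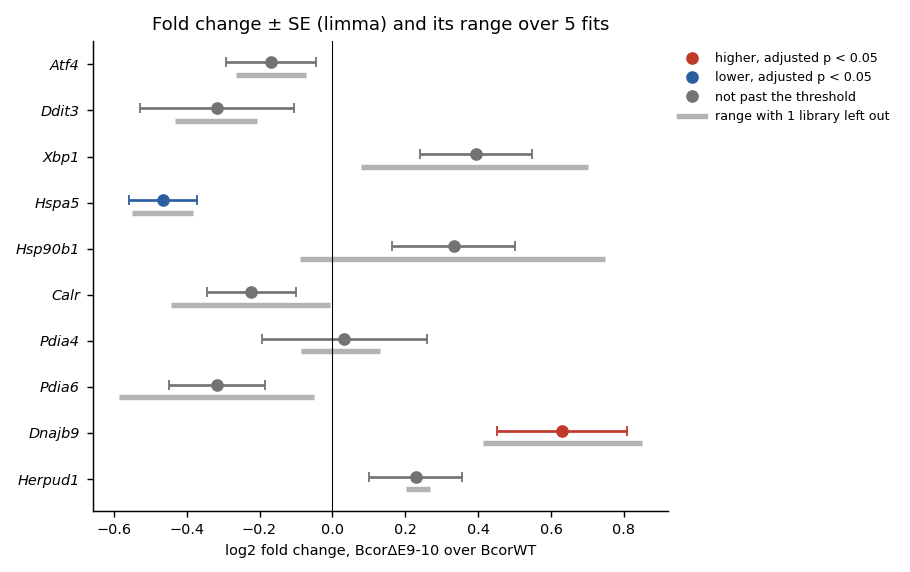
Log2 fold change of each member, BcorΔE9-10 over BcorWT, as points with the SE of the limma fit (n = 3 and 2 libraries); the thick grey bar under each point spans the fits that each left out 1 library. Hspa5 (-0.47) and Dnajb9 (0.63) are colored as passing, and the grey bar of Hsp90b1 runs from -0.09 to 0.75.

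Because the members lay on both sides of 0, their proportions within a library were also examined, which needs no scaling between libraries. The counts of Hspa5 serve as the denominator, and since Hspa5 was lower in BcorΔE9-10, 58.2% of the other genes tested had a proportion to Hspa5 that was higher in each BcorΔE9-10 library than in either BcorWT library. Dnajb9 amounted to 4.90, 6.29 and 4.77 counts per 100 counts of Hspa5 in BcorΔE9-10 and to 2.68 and 2.22 in BcorWT. Xbp1 amounted to 15.9, 18.4 and 19.3 against 7.47 and 12.9, Herpud1 to 8.81, 10.7 and 9.80 against 5.64 and 6.40, and Atf4 to 21.8, 20.3 and 18.6 against 16.6 and 16.3. With Hsp90b1 (33.9 to 42.4 against 15 and 30.1) and Pdia4 (1.46 to 1.86 against 1.05 and 1.35), 6 of the other 9 members had proportions that lay above in this way, a share near that of all genes, and those of Ddit3, Pdia6 and Calr overlapped. All of them share the Hspa5 counts, so they are not separate observations and were given no test. Ordered by mean count level over the 5 libraries, which compares transcript ends and is not per length, Hspa5 (950.5 CPM) stood first and Calr (500.1 CPM) second, followed by Hsp90b1 (284 CPM), Pdia6 (278 CPM), Atf4 (175 CPM), Xbp1 (134 CPM), Herpud1 (75.6 CPM), Dnajb9 (37.4 CPM), Ddit3 (14.4 CPM) and Pdia4 (13.9 CPM). The neighbouring pairs Hsp90b1 with Pdia6, Atf4 with Xbp1 and Ddit3 with Pdia4 overlapped in their ranges over the libraries. The order also differed between the genotypes, with Hsp90b1 above Pdia6 in each BcorΔE9-10 library (means of 306 and 251 CPM) and below it in each BcorWT library (252 and 318 CPM). By likeness of pattern over the 5 libraries, the 3 genes whose centred log2 CPM lay closest to that of Atf4, among 3794 genes, were Hist1h2bk, Sash3 and B230208H11Rik (root mean square differences 0.0119, 0.0189 and 0.0239). Those closest to Hspa5 were Mlst8, Actb and Tfeb (0.0226, 0.0264 and 0.0284).

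The sensors upstream of the members were read next, in a list of 18 genes of the sensors, the eIF2α kinases and phosphatase subunits, and related factors, all tested. Of these 2 were higher (Eif2ak3 and Ern1) and 1 was lower (Atf6b), beside 6.02% higher and 4.09% lower over all genes tested. The list median was 0.003 against 0.004 for all genes tested. Eif2ak3, which encodes PERK, had 163, 102 and 125 counts in BcorΔE9-10 and 69 and 50 in BcorWT (log2 fold change 0.96, SE 0.257, limma adjusted p = 0.0250). Ern1, which encodes IRE1α, had 171, 133 and 221 counts against 87 and 95 (0.77, SE 0.215, limma adjusted p = 0.0313). The levels of both lay above those of BcorWT in each BcorΔE9-10 library. Atf6b, which encodes a relative of ATF6, had 672, 396 and 559 counts against 621 and 739 (-0.49, SE 0.142, limma adjusted p = 0.0360), with each BcorΔE9-10 level below both BcorWT levels. Atf6 itself had 124, 140 and 166 counts against 92 and 72 (0.63, limma adjusted p = 0.119) and did not pass. Ppp1r15a, which encodes the stress-induced subunit GADD34 of the eIF2α phosphatase, had 272, 131 and 259 counts against 237 and 158, a value of -0.008 on the log2 scale (limma adjusted p = 0.989).

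The sensor calls were not stable. After removal of the GC trend none of the 18 passed (limma, 5 at an unadjusted p under 0.05), with values of 0.62 for Eif2ak3 (limma adjusted p = 0.157), 0.56 for Ern1 (0.119) and -0.34 for Atf6b (0.153). The transcript ends of Eif2ak3, Ern1 and Atf6b hold 26.7%, 31.0% and 49.0% G and C. Eif2ak3 passed only without BcorΔE9-10 3 (1.06) among the fits that left out 1 library, and was 0.85, 0.96, 1.16 and 0.77 without BcorΔE9-10 1, BcorΔE9-10 2, BcorWT 1 and BcorWT 2. Ern1 passed only without BcorΔE9-10 1 (0.86), and was 0.79, 0.65, 0.67 and 0.87 without BcorΔE9-10 2, BcorΔE9-10 3, BcorWT 1 and BcorWT 2. Atf6b did not pass without BcorΔE9-10 2 (-0.45), BcorΔE9-10 3 (-0.46) or BcorWT 2 (-0.33), nor with total counts alone (-0.35, limma adjusted p = 0.137). With total counts alone 4 sensors were higher and none was lower, where 1210 of the 11766 genes tested were higher and 197 lower. The median of all genes was 0.149 in that setting. With the replicate block Ern1 was 0.67 (limma adjusted p = 0.0709).

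ATF4 target genes were read in a list of 40, of which 30 passed the filter on low counts. Of these 2 were higher (Cebpb and Cebpg) and 1 was lower (Asns), where 10.1% of all genes tested passed, 6.02% higher and 4.09% lower. Fold changes were positive for 12 and negative for 18, and the median was -0.04. Asns, the asparagine synthetase gene and a standard readout of ATF4, had 21, 22 and 12 counts in BcorΔE9-10 and 64 and 73 in BcorWT. Its levels of 2.49 ± 1.09 CPM (SD, n = 3) and 9.93 ± 1.22 CPM (SD, n = 2) lay far apart, with a log2 fold change of -2.13 (limma SE 0.387, adjusted p = 0.00240). Asns passed in all 5 fits that left out 1 library (-2.37 to -1.76) and under all 11 other alternatives. Its promoter window holds a match to the ATF4-CEBP composite element, as do 13 of the 37 windows of the list (35.1%). The 3 serine synthesis genes of the list ran from -0.07 (Psat1) to 0.41 (Psph), and none passed (limma, none at an unadjusted p under 0.05). The 9 tRNA synthetase genes of the list ran from -0.28 (Gars) to 0.32 (Iars), and none passed or had an unadjusted p under 0.05. These genes were grouped after their values were seen. Other readouts of the stress branch were scarce. Chac1 had 14, 16 and 19 counts against 13 and 39 (-0.63, limma adjusted p = 0.491, and 0.16 without BcorWT 2), and Trib3 had 2, 1 and 8 against 2 and 4 and was not tested.

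Cebpb, a transcription factor of granulocyte and monocyte differentiation, had 366, 440 and 479 counts in BcorΔE9-10 and 145 and 162 in BcorWT (log2 fold change 1.31, SE 0.217, limma adjusted p = 0.00128). It passed in every fit that left out 1 library, and it overlaps Tmem189 on the other strand. Cebpg, which encodes a partner of ATF4, had 166, 149 and 164 counts against 51 and 94 (1.04, SE 0.268, limma adjusted p = 0.0205). Cebpg did not pass without BcorWT 1 (0.56, limma adjusted p = 0.288) or without BcorΔE9-10 2 (0.95, limma adjusted p = 0.0618). Both encode C/EBP factors, a family with roles of its own in myeloid differentiation.

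Other folding genes of the ER were 23, all tested, with 1 higher (Fkbp2), 3 lower (Hyou1, Creld2 and Uggt1) and a median of -0.04. Over all genes tested 6.02% were higher and 4.09% lower. Fkbp2, which encodes a prolyl isomerase of the ER, had 533, 361 and 452 counts in BcorΔE9-10 and 199 and 233 in BcorWT (log2 fold change 0.89, SE 0.162, limma adjusted p = 0.00236) and passed in every fit that left out 1 library. Hyou1, which encodes a nucleotide exchange factor of BiP, had 1188, 640 and 987 counts against 1065 and 1243 (-0.48, SE 0.138, limma adjusted p = 0.0364), with each BcorΔE9-10 level below both BcorWT levels. Creld2, an ER stress gene whose promoter window holds an ERSE, had 63, 35 and 71 counts against 83 and 101 (-0.87, SE 0.260, limma adjusted p = 0.0425). Uggt1, which encodes the glucosyltransferase that marks unfolded glycoproteins for calreticulin and calnexin, had 1591, 959 and 1603 counts against 1538 and 1684 (-0.40, SE 0.119, limma adjusted p = 0.0443). Dnajc3, which encodes another BiP co-chaperone, had 470, 300 and 465 counts against 432 and 523 (-0.38, limma adjusted p = 0.113), and passed after removal of the GC trend (-0.65, limma adjusted p = 0.00850). The 3 lower calls lay near the threshold. Hyou1 did not pass without BcorΔE9-10 2 (-0.39), BcorΔE9-10 3 (-0.46) or BcorWT 2 (-0.33), and Creld2 and Uggt1 passed only without BcorWT 1 (-1.05 and -0.50). Without BcorΔE9-10 1, BcorΔE9-10 2, BcorΔE9-10 3 and BcorWT 2, Creld2 was -0.90, -0.75, -1.0 and -0.70 and Uggt1 was -0.44, -0.31, -0.45 and -0.30. With total counts alone none of the 3 passed (-0.33, -0.73 and -0.25), nor with quality weights (-0.46, -0.84 and -0.38, limma adjusted p of 0.0540, 0.0555 and 0.0638). Of the 11 alternatives other than leaving out a library, Hyou1 passed in 9, Uggt1 in 7 and Creld2 in 4, and with the GC trend removed Uggt1 was -0.27 (limma adjusted p = 0.177) and Creld2 -0.78 (limma adjusted p = 0.0718).

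Genes of ER entry and ER-associated degradation were 39, of which 38 were tested, 4 were higher and 2 lower, and the median was -0.05. Beside these counts, 6.02% of all genes tested were higher and 4.09% lower. Spcs3, a subunit of the signal peptidase, had 504, 617 and 651 counts in BcorΔE9-10 and 53 and 131 in BcorWT. Its log2 fold change of 2.66 (limma SE 0.325, adjusted p = 0.000104) was the widest of the 4 lists, and it passed in every fit that left out 1 library (1.96 to 3.33), although the BcorWT libraries differed and Asb5 overlaps it on the other strand. Srp9, a subunit of the signal recognition particle, had 1180, 942 and 1247 counts against 525 and 630 (0.81, SE 0.130, limma adjusted p = 0.00110). Spcs2, another signal peptidase subunit, had 1638, 1339 and 1583 counts against 806 and 1086 (0.55, limma adjusted p = 0.0202) and did not pass without BcorWT 1 (0.29) or BcorΔE9-10 2 (0.48). Selenos, a selenoprotein of the degradation complex, had 460, 444 and 489 counts against 323 and 240 (0.58, limma adjusted p = 0.0394) and did not pass without BcorΔE9-10 2 (0.46), BcorΔE9-10 3 (0.61) or BcorWT 2 (0.40), nor with the GC trend removed (0.49, limma adjusted p = 0.0782) or quality weights (0.55, limma adjusted p = 0.0594). Sec61a1 and Sec61g encode subunits of the channel through which proteins enter the ER. Sec61a1 had 2462, 1586 and 2499 counts against 3018 and 2903 (-0.61, SE 0.102, limma adjusted p = 0.00132), and Sec61g had 7055, 5189 and 6359 against 7114 and 8268 (-0.47, SE 0.102, limma adjusted p = 0.00860, and -0.32 without BcorWT 2, where it did not pass). The third channel gene Sec61b had 2648, 2332 and 2737 counts against 1862 and 2131 (0.22, limma adjusted p = 0.273), and was chosen for mention after its values were seen. Genes of the same machinery thus lay on both sides of 0, and the 4 list medians ran from -0.05 to 0.003 on the log2 scale.

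**Figure D4:**
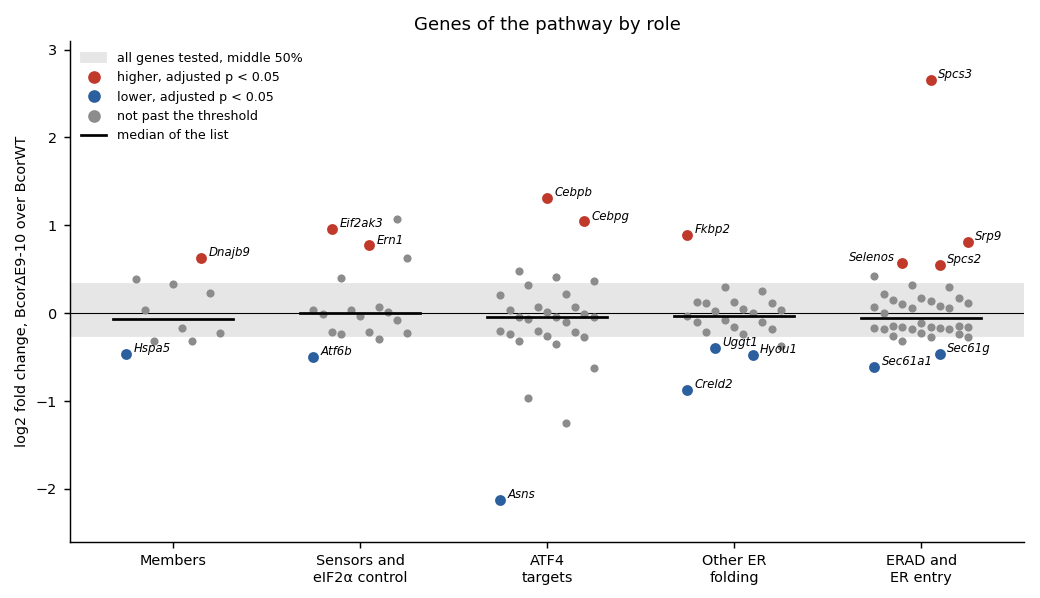
Log2 fold change, BcorΔE9-10 over BcorWT, of every tested gene of the members and the 4 lists, with genes past the limma threshold colored and named, the list median as a black bar and the interquartile range of all genes tested as a grey band. Called genes lie on both sides of 0 in each list, from Asns at -2.13 to Spcs3 at 2.66, while the medians lie between -0.07 and 0.003.

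**Figure D5:**
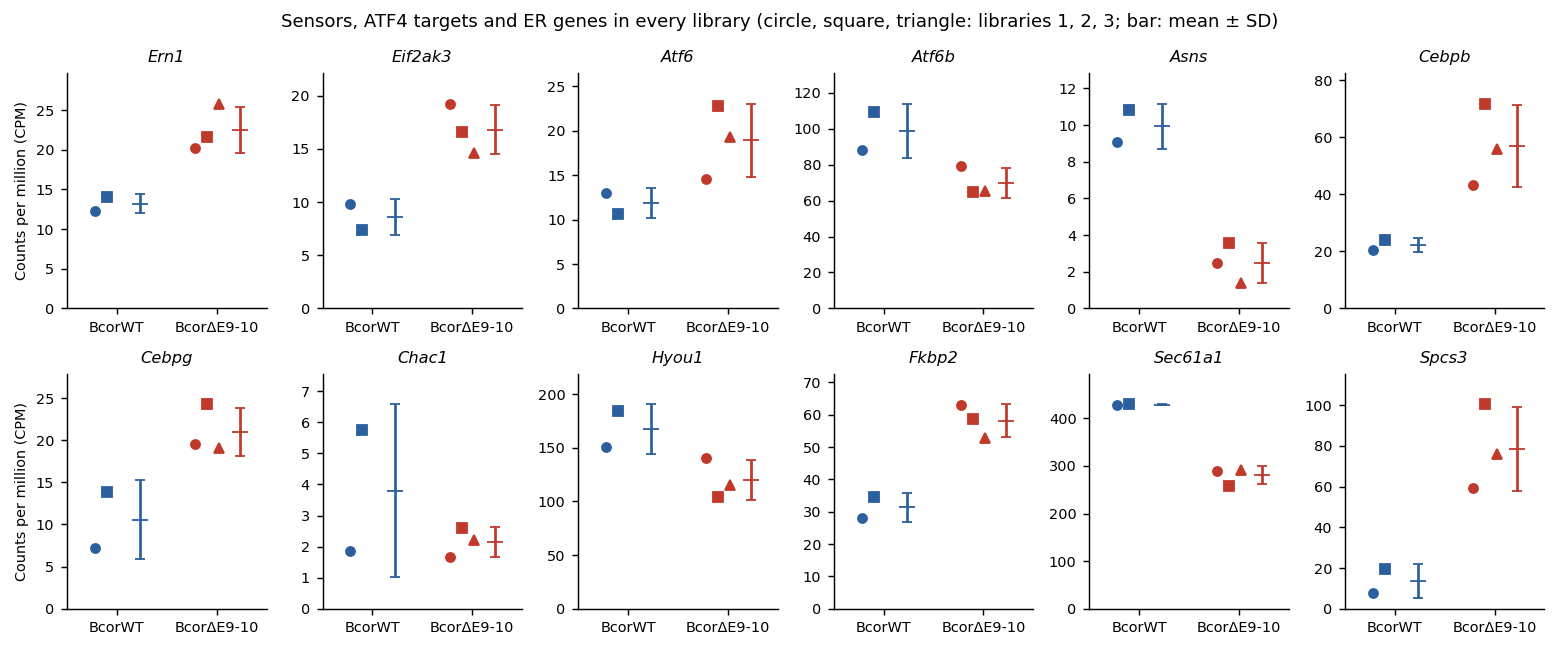
Level in CPM of 12 genes of the lists in every library, on axes that start at 0, with the mean ± SD of each group (BcorWT n = 2, BcorΔE9-10 n = 3) beside its points. Asns and Sec61a1 are lower and Spcs3, Cebpb and Fkbp2 higher in each BcorΔE9-10 library than in either BcorWT library, and the 2 BcorWT points of Chac1 lie apart.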

How the data were processed

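KL cells were sorted from bone marrow depleted of cells with lineage markers, and libraries were sequenced as single reads. The authors used bcl2fastq (2.17.1.14), trimmed reads with cutadapt, mapped them with HISAT2 (build mm10) and assigned them to genes with Subread (1.5.0-p3), per the methods and the submitters' processing notes. The authors deposited whole-number counts for 52550 genes, with no normalization. How reads that align to several places and strand were handled is not given in the sources used here. Whether a library came from 1 animal is not stated, so p-values measure the spread between these libraries.

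Identifiers were matched to GENCODE M21 symbols (52403 genes) and promoters to the RefSeq table of GRCm38.p6. Genes were kept by filterByExpr of edgeR 4.0.16 (minimum count 10, minimum total 15), scaled by TMM and fitted on genotype with limma 3.58.1 on voom values in R 4.3.3, two-sided, with Benjamini-Hochberg adjustment over all 11766 genes and a threshold of 0.05. Alternatives were edgeR's quasi-likelihood test, DESeq2 1.42.0, total counts or DESeq2 size factors, other filters, sample quality weights, counts drawn down to the smallest library, a replicate block, removal of a GC trend (lowess span 0.3, last 300 bases of the transcript) and leaving out each library. Genes named were the members, at most 6 called genes of each list by adjusted p, 9 genes named whether called or not (4 of them also called), and markers of the population or of values that moved. Other genes named (such as Sec61b, Psat1, Psph, Gars, Iars, Tpsb2, Ms4a1 and the heat and handling genes) fall outside this rule and were named after their values were seen. The members and lists were chosen with earlier results of these data known. Protein sequences were not analysed here. On counts simulated for this comparison (11446 genes, 194 changed), 150 changed genes were called in the right direction and 11 calls were false. By size, 62 of 99 genes changed 2-fold and 88 of 95 changed 4-fold were called. Smaller changes, such as those of all the members, were not simulated, so the power to call them is not known from this.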

Additional observations from a re-analysis of the deposited data

How the results depend on the processing

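Over 30 genes and 480 comparisons with an alternative, 398 kept their direction and their side of the threshold, 59 no longer passed, 9 newly passed and 14 changed sign. The sign changes all fell on genes that passed in neither fit. They were Hsp90b1 without BcorWT 1 (-0.089, against 0.75 without BcorWT 2), Chac1 without BcorWT 2 (0.16, against -1.46 without BcorWT 1), Pdia4 with the GC trend removed (-0.22), with the block as well (-0.11), without BcorΔE9-10 1 (-0.086) and without BcorWT 1 (-0.07), and Ppp1r15a with total counts alone (0.13), at least 10 counts in every library (0.00082), quality weights (0.029), counts drawn down (0.015), the GC trend removed (0.17), with the block as well (0.089), without BcorΔE9-10 2 (0.15) and without BcorWT 1 (0.25, against -0.26 without BcorWT 2). Leaving out 1 library gave 558 to 1200 calls over all genes (fewest without BcorWT 1), 1 to 3 of the members, 0 to 2 of the sensors (0 without BcorΔE9-10 2, limma, 5 at an unadjusted p under 0.05), 2 to 4 of the ATF4 targets, 1 to 5 of the other folding genes and 4 to 6 of the ER entry and degradation genes. Fits that left 1 BcorWT library assume that it varies like the other group. Removal of the GC trend left 1 member called and 0 sensors, and 0 sensors with the block as well (limma, 3 at an unadjusted p under 0.05). Total counts alone or quality weights left 1 of the other folding genes. Total counts alone called 1210 genes higher and 197 lower, and the GC trend removed with the block 929 and 399, against 708 and 481. With the library number as a replicate block 1454 genes passed, or 1328 with the GC trend removed, with 5 and 6 of the ATF4 targets and 3 of the members each time. In these fits BcorΔE9-10 3 has no BcorWT library of its number and does not enter the genotype difference. Little is left in them to measure the spread between libraries, so their calls are less sure than their number makes them look. Deviations of libraries with the same number correlated by 0.06 and 0.07. With 2 BcorWT libraries the deviation of 1 is the mirror of the other, so these values cannot decide whether the numbers mark pairs. The pairing was taken from the number alone. The cause of these changes was not tested. The number of libraries, 5 with 2 of them controls, limits the precision of every value.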

Other observations

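A list of 16 genes that respond to cell handling or heat was also read. All were tested, and 6 were lower in BcorΔE9-10 (Hspa1a, Hspa1b, Dnajb1, Hspb1, Hsph1 and Hsp90aa1) and 3 were higher (Fos, Fosb and Zfp36). Over all genes tested 4.09% were lower and 6.02% higher. Hsph1, which encodes the nucleotide exchange factor HSP110 of cytosolic HSP70, had 70, 71 and 116 counts in BcorΔE9-10 and 194 and 181 in BcorWT (log2 fold change -1.32, SE 0.219, limma adjusted p = 0.00126). Hsp90aa1, the inducible cytosolic HSP90, had 6250, 4989 and 6866 counts against 9007 and 6372 (-0.49, limma adjusted p = 0.0125). Hspa8, the constitutive cytosolic HSP70, did not pass (-0.33, limma adjusted p = 0.0937). Hspa1a and Hspa1b are close copies over their coding part, but the last 300 bases of neither share a 30-base word with another gene. These counts turned on single libraries, with 1 gene lower and 5 higher without BcorWT 1, 9 and 1 without BcorWT 2, 3 and 1 without BcorΔE9-10 1, and 4 and 1 without BcorΔE9-10 2.

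All 13 mitochondrially encoded mRNAs of the table were listed at 0 in every library, so the share of mitochondrial counts gave no measure of RNA quality here.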
